A study of Mus musculus with 30 samples.

Results

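Y397F-T10 mice received a plasmid for a point mutant of CREST, in which tyrosine 397 is replaced by phenylalanine, and were killed 1 h after 10 min of training in the object location memory (OLM) task. The labels call this mutant phospho-null, but the study could not detect phosphorylation at the residue in its own samples. It chose the site from a database record of the matching human tyrosine, drawn from mass spectrometry, and from predictions. The mice are compared here with VEH-HC mice, which were kept in the home cage. The members are all 12 libraries that the labels give to these conditions, 6 of each among 30 in all, and the 13184 rows of the table with a mean FPKM (fragments scaled to transcript length and to library size) of at least 1. All mice were male C57BL/6J mice of wild-type genotype, singly housed young adults, and each library is dorsal hippocampus tissue of 1 mouse. The study describes this tissue as coming from 1 hemisphere, and elsewhere calls it dorsal CA1. Y397F-T10 mice received in vivo-jetPEI, a polymer transfection reagent, complexed with a plasmid encoding HA-tagged mouse CREST Y397F under a miniCaMK2 promoter, which favors excitatory neurons. VEH-HC mice received the reagent without DNA and were handled only. The infusions went into dorsal CA1 on both sides. VEH-T10 mice, also 6, received the reagent without DNA and the same 10 min of training, and their values are set beside the others below. No condition received a plasmid with unmutated CREST, so the mutation and the expression of an exogenous protein cannot be told apart, and in Y397F-T10 against VEH-HC the plasmid and the training cannot be told apart. In the OLM procedure, days of habituation to the chamber come before training. Against handled VEH-HC mice, habituation and training cannot be told apart either. The hour of collection of the home cage mice is not given in the sources used here.

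CREST, encoded by Ss18l1, is a subunit of the neuronal BAF complex, which uses ATP to move and evict nucleosomes, and it binds the histone acetyltransferase CBP, encoded by Crebbp. In hippocampal neurons, learning activates calcium and ERK signals that reach CREB, CBP and the serum response factor. A first wave of transcription factor genes such as Fos and Egr1 follows within minutes, and then effector genes that act at synapses. The adult hippocampus also carries a circadian clock, in which CLOCK and BMAL1 drive Per, Nr1d1, Ciart and Dbp from E-boxes, and PER, CRY and REV-ERB proteins repress that loop.

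Promoter windows of 4 genes described below are shown as examples of motifs of the CREB or the clock pathway. They are taken from RefSeq (GRCm38.p6), read on the strand of the gene, and capitals mark the motif, either the core of the cAMP response element (CRE) TGACG, the full CRE TGACGTCA or the canonical E-box CACGTG. The motifs do not set these genes apart. Other called genes hold them too, among them Slc17a6, Cirbp, Slc8a3, Gng4, Klf9, Sirt4 and Cnksr2 (CRE core) and Hsph1 and Slc7a14 (E-box). Homer1 has 3 CRE cores before a RefSeq start that lies within the gene's annotated span, at chr13:93303690-93303716, chr13:93303706-93303732 and chr13:93303732-93303758, all on the plus strand.
Homer1, CRE core: cccgcacaagcTGACGtgagcggaggg
Homer1, CRE core: tgagcggagggTGACGtatgtgcggag
Homer1, CRE core: gaggagcgcgcTGACGttgctatttaa
Fosb has 1 CRE core, at chr7:19310090-19310116 on the minus strand.
Fosb, CRE core: ggagttgcgggTGACGcaagcgcgggg
Ciart, on the minus strand, has 3 E-boxes within 120 bases upstream of its start, at chr3:95882328-95882355, chr3:95882270-95882297 and chr3:95882256-95882283.
Ciart, E-box: gcatctagagtCACGTGttgccggtaag
Ciart, E-box: gcagggggaggCACGTGcagaaccgcac
Ciart, E-box: gtgcagaaccgCACGTGtctgggagggg
Dusp1, on the minus strand, has a full CRE, which contains the CRE core, at chr17:26508598-26508625 and an E-box next to it at chr17:26508582-26508609. A further CRE core of Dusp1, at chr17:26508648-26508674, is not printed.
Dusp1, full CRE: gtagggcgggTGACGTCAccgcccggtc
Dusp1, E-box: caccgcccggtCACGTGtctgccattca

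Relative depth, set to 1 at the median library, ran from 0.947 to 1.2 over the VEH-HC mice (median 1.11) and from 0.812 to 1.13 over the Y397F-T10 mice (median 0.991). The table holds no read totals. All 11 CA1 pyramidal neuron markers on the list passed the filter, 0 of them were called, and their median log2 fold change was 0.01. Their mean level on the log2 scale was 4.45 to 4.63 in VEH-HC and 4.24 to 4.53 in Y397F-T10. Dcn and Nov of this list are also on the list of meningeal fibroblast markers. Of other tissues, choroid plexus transcripts separated the mice most. Ttr, which encodes the transthyretin that choroid plexus secretes, stood between 890 and 5426 FPKM in the 6 VEH-HC mice, at 10072 and 6105 in Y397F-T10 mice 2 and 4, and between 23.6 and 55.5 in the other 4 Y397F-T10 mice. The 18 choroid plexus markers summed to 1124 to 6615 FPKM in VEH-HC and to 74.6 to 12498 in Y397F-T10, 0 of 18 were listed at 0 in any of the 12 libraries, and 18 of 18 had a log2 fold change below 0, with a median of -1.22 and 0 calls. In VEH-T10 they summed to 55.9 to 5294 FPKM, with a median log2 fold change of -1.58 against VEH-HC. Mean levels of 12 thalamus and habenula markers were 2.82, 3.06 and 3.12 on the log2 scale (lowest, median and highest mouse) in VEH-HC and 2.46, 2.56 and 2.89 in Y397F-T10. VEH-T10 had 2.51, 2.58 and 2.69. A further 12 markers of that list lay under the filter, and 4 of all 24 were listed at 0 in at least 1 of the 12 libraries. In bulk tissue, fewer cells of a type and less RNA per cell cannot be told apart. Y397F-T10 mouse 1 was lowest of its condition for dentate granule cell markers (2.92 against 3.61 to 3.78) and for microglia markers (4.24 against 5.09 to 5.65). VEH-T10 mouse 1 was much like it for microglia markers (4.23) and astrocyte markers (4.54 beside 4.51). For dentate markers VEH-T10 mouse 1 stood at 3.27, above VEH-T10 mouse 6 at 2.87. VEH-HC mouse 4 was low for long transcripts, with a rank correlation of -0.59 across genes between transcript length and its deviation from the mean library, where the other 5 VEH-HC mice had -0.21 to 0.07.

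**Figure D1:**
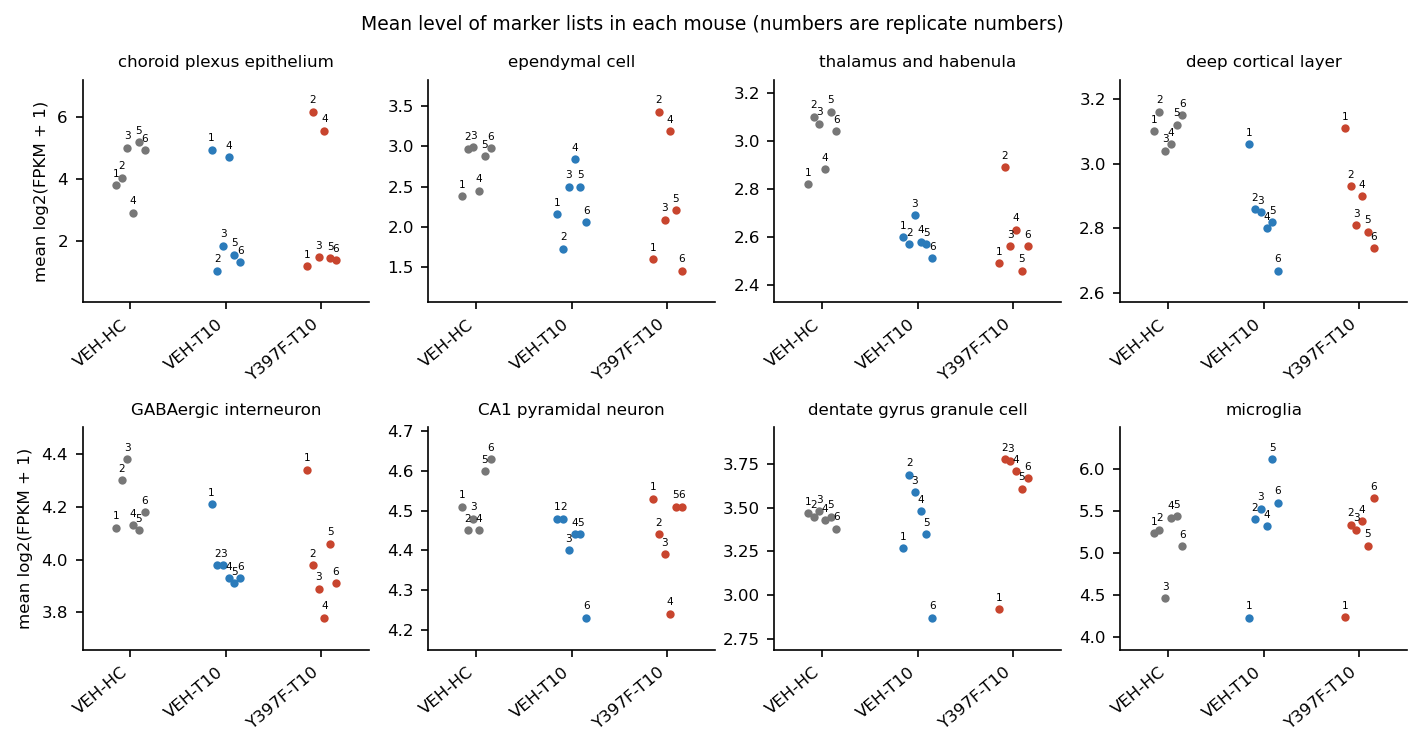
Mean log2(FPKM + 1) of 8 marker lists (vertical axes) in each of the 6 mice of VEH-HC (gray), VEH-T10 (blue) and Y397F-T10 (red), numbered by replicate. Choroid plexus markers are high in all 6 VEH-HC mice (2.91 to 5.19) but in only 2 of 6 Y397F-T10 mice (6.16 and 5.55, the others 1.18 to 1.49). VEH-T10 mice show the same split, with mice 1 and 4 at 4.94 and 4.69 and the others at 1.05 to 1.85. CA1 markers overlap between conditions.

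Ss18l1 was read first, because the plasmid carries its mouse coding sequence. Here and below, 3 values for a condition are the FPKM of its lowest, median and highest mouse, and a signed or unsigned value in parentheses before an adjusted p is the log2 fold change of Y397F-T10 over VEH-HC. The FPKM of Ss18l1 was 11.4, 12.5 and 13.3 in VEH-HC, 11.4, 12.5 and 14 in Y397F-T10 and 10.4, 12.4 and 13.3 in VEH-T10. The 3 conditions overlapped. Y397F-T10 minus VEH-HC was 0.25 FPKM (2-sided exact permutation test, p = 0.606, with 0.00216 the smallest p possible), so expression from the plasmid was not detectable in these RNA values at this level of spread. The study does show staining for the HA tag of this mutant in dorsal CA1 after the same kind of transfection, a protein measure on brain sections. Plasmid and endogenous reads cannot be told apart in a value per symbol, and the label could not be checked from it. Crebbp, whose product CREST recruits, was 3.89, 5.88 and 6.59 in VEH-HC and 6.53, 7.15 and 7.55 in Y397F-T10, and VEH-T10 had 5.47, 6.06 and 6.51. The Crebbp log2 fold change was 0.28 (SE 0.075, adjusted p = 0.0596) and it missed the threshold of 0.05. VEH-HC mouse 4, at 3.89 FPKM, lay apart from the next VEH-HC mouse at 5.76.

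In Y397F-T10, 62 rows were raised (0.470% of those tested) and 87 were lowered (0.660%) against VEH-HC (limma, Benjamini-Hochberg adjusted p under 0.05). The changes were small. Raised rows had log2 fold changes from 0.17 to 0.76 with a median of 0.27, lowered rows from -0.14 to -1.12 with a median of -0.29, and 7 raised and 8 lowered rows reached 0.5 in size. The mice of both conditions did not overlap in 33 of the raised and 50 of the lowered rows. Over all tested rows, 73 (0.554%) were higher and 164 (1.24%) lower without overlap, and the median log2 fold change was -0.04, with 36.3% of rows above 0, a share against which the sign counts of gene lists below are to be read. Counts of called list members are likewise to be read against the 0.470% raised and 0.660% lowered of all rows. At an unadjusted p under 0.05, 725 rows were higher (5.50%) and 1507 lower (11.4%). The direction of the calls moved with the scaling. Of the called rows 41.6% were raised, and 71.4% once each library was centered on its median (30 raised, 12 lowered), a shift of 0.0266 in the median log2 fold change.

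**Figure D2:**
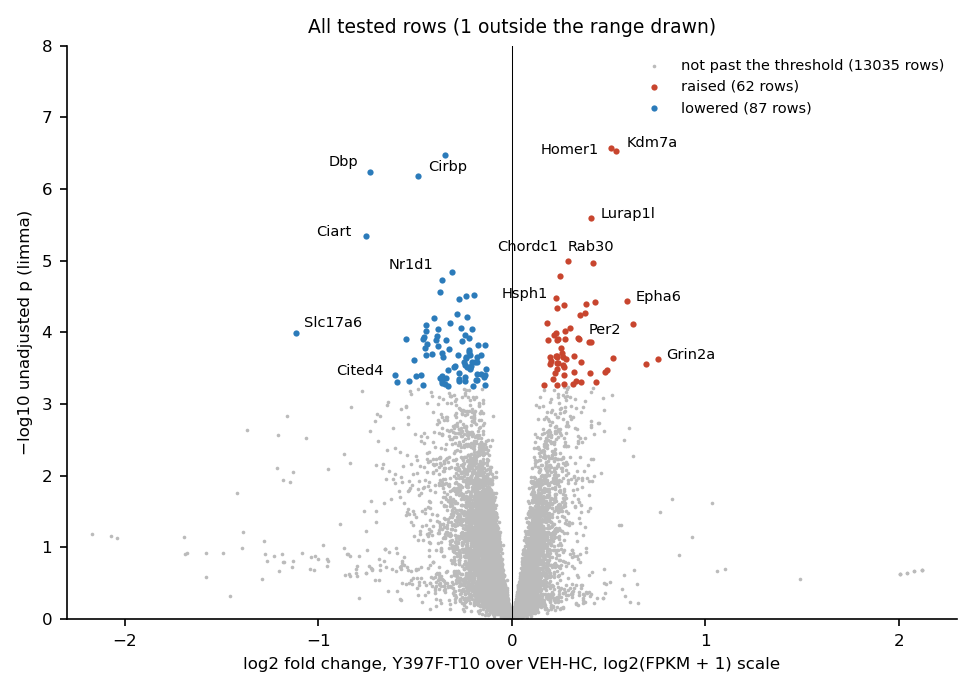
Log2 fold change of Y397F-T10 over VEH-HC (horizontal) against −log10 of the unadjusted limma p (vertical) for the tested rows, with raised rows in red, lowered rows in blue and the rest in gray. Homer1, Kdm7a, Dbp, Cirbp, Ciart and Lurap1l stand highest among the labeled genes, and 1 row lies outside the range drawn.

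The number of calls rested on single mice. Without VEH-HC mouse 2, 3 rows were raised and 4 lowered, and the same counts were found without Y397F-T10 mouse 6. Without VEH-HC mouse 4 there were 10 and 8, without VEH-HC mouse 5 there were 9 and 18, without Y397F-T10 mouse 3 there were 7 and 12, without Y397F-T10 mouse 5 there were 11 and 14, and without Y397F-T10 mouse 4 there were 28 and 35. Lowered rows fell to 53 without VEH-HC mouse 1 and 54 without VEH-HC mouse 3. Without Y397F-T10 mouse 1 the counts rose to 119 and 283. Of the 62 raised rows 3 to 11 remained called without any 1 of the 6 mice VEH-HC 2, 4 and 5 and Y397F-T10 3, 5 and 6, and 26 to 60 without any 1 of the other 6, and of the 87 lowered rows 4 to 18 and 32 to 86. All 62 raised and all 87 lowered rows kept the sign of their change in each of these 12 fits. They were called with all 12 mice included, so a kept sign is largely built in and is not independent evidence. Against the 6 VEH-HC mice, Y397F-T10 mice 2 and 4 alone, which had choroid plexus transcripts, gave 0 calls, and the other 4 Y397F-T10 mice alone gave 134 raised and 268 lowered rows, a split made after the data were seen. Both fits have fewer samples. All 62 raised and all 87 lowered rows, called with these mice included, kept their sign in both. With the mean levels of the choroid plexus and thalamus lists as covariates 0 rows were called, and 62 of 62 raised and 86 of 87 lowered rows kept their sign. The thalamus mean itself went with condition (2.82 to 3.12 in VEH-HC, 2.46 to 2.89 in Y397F-T10). That fit therefore also takes out part of the difference between conditions. Its smaller changes, here and below, cannot tell tissue content from condition. Among the called rows, 3 raised (Homer1, Kdm7a and Lurap1l) and 4 lowered (Dbp, Ciart, Cirbp and B930041F14Rik, named after its values were seen) stayed called whichever mouse was left out.

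**Figure D3:**
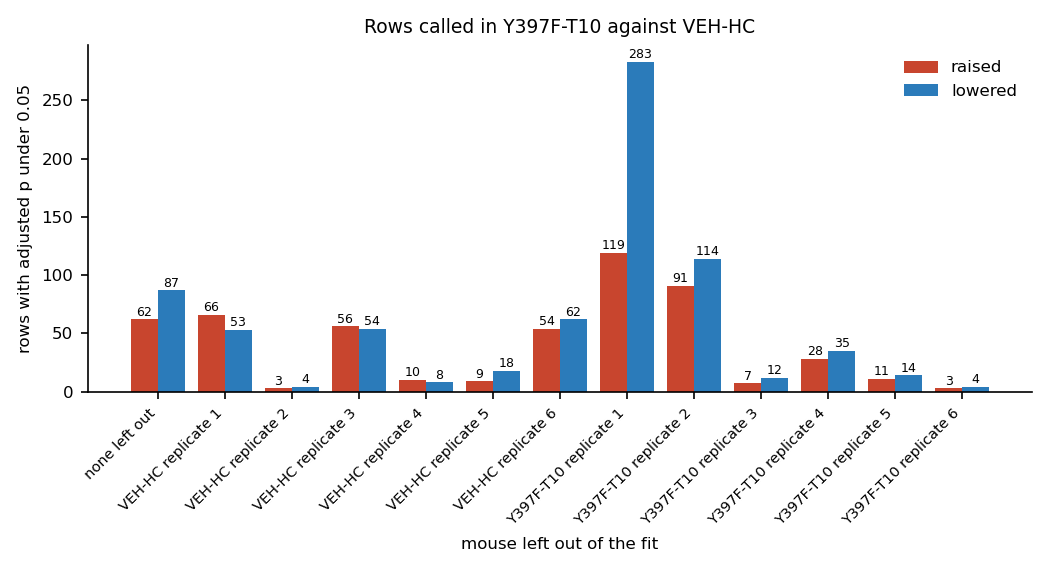
Number of rows with an adjusted p under 0.05 (vertical, from 0), raised in red and lowered in blue, with no mouse left out and with each of the 12 mice left out in turn (horizontal). The counts range from 3 raised and 4 lowered without VEH-HC mouse 2 or Y397F-T10 mouse 6 to 119 and 283 without Y397F-T10 mouse 1.

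Among genes that neuronal activity induces, the smallest adjusted p was that of Homer1 (GRCm38 chr13:93299635-93405129), which encodes a postsynaptic scaffold and, upon activity, a short form that uncouples it. Its CRE cores are printed above. Homer1 stood at 14.4, 16.2 and 17.4 FPKM in VEH-HC and at 19.1, 24.2 and 26.1 in Y397F-T10, and every Y397F-T10 mouse lay above every VEH-HC mouse. The log2 fold change was 0.51 (SE 0.0763, adjusted p = 0.00147). Fosb, a Fos family transcription factor, was 1.44, 1.73 and 1.88 in VEH-HC and 1.84, 2.69 and 3.5 in Y397F-T10. Only Y397F-T10 mouse 4, at 1.84 FPKM, lay within the VEH-HC range, and Fosb rose by 0.44 (adjusted p = 0.047), a call made in 1 of the 12 fits with 1 mouse left out. Nptx1, a secreted pentraxin that binds AMPA receptors, was 123, 131 and 137 in VEH-HC and 139, 152 and 183 in Y397F-T10, without overlap, and rose by 0.28 (adjusted p = 0.0364). Dusp1, a phosphatase that turns off MAP kinases, moved the other way, with 6.71, 8.61 and 11.1 in VEH-HC and 4.83, 6.08 and 7.79 in Y397F-T10 (log2 fold change -0.44, adjusted p = 0.0358). In the fit with the choroid plexus and thalamus covariates the log2 fold change of Dusp1 was -0.07 and that of Nptx1 0.16, and Dusp1 was not called with the length and GC trend removed (adjusted p = 0.124).

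Of 20 immediate-early transcription factors tested, 1 rose (5%, beside 0.470% of all rows), 0 fell and 19 were not called, with a median log2 fold change of 0.02 beside -0.04 for all rows. Egr1, the best-known of the Egr zinc finger factors in memory, was 30.8, 37.1 and 39.7 in VEH-HC and 37.2, 50.9 and 67.6 in Y397F-T10. Y397F-T10 mouse 1 stayed at the VEH-HC level, and the log2 fold change of 0.47 missed the threshold (adjusted p = 0.0573). Fos was 3.85, 4.58 and 6.46 in VEH-HC and 5.29, 6.18 and 8.09 in Y397F-T10 (0.32, adjusted p = 0.23), and the conditions overlapped. In the same list Egr2 had a log2 fold change of 0.40, Egr4 of 0.27 and Nr4a3 of 0.33, none of them called. Of 29 effector genes, 2 rose (6.9%), 1 fell (3.45%, beside 0.660% of all rows) and 26 were not called, with a median of 0.06. Of 11 feedback regulators of ERK signaling, Spred1 rose by 0.17 (adjusted p = 0.0491) from 20.3, 21.6 and 22.2 to 23.2, 24.1 and 25 FPKM, a call lost with the length and GC trend removed (adjusted p = 0.159), while Dusp6 (0.28, adjusted p = 0.147) and Spred2 (0.20, adjusted p = 0.0589) were not called. Arc, the synaptic effector that activity sends to dendrites, had a log2 fold change of -0.16 (adjusted p = 0.617).

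Clock genes changed in both directions. Dbp (GRCm38 chr7:45705088-45710203), a PAR bZIP factor and a direct output of the clock, was 31.4, 42.4 and 53.3 FPKM in VEH-HC and 20.4, 26 and 29.2 in Y397F-T10. The mice did not overlap, and Dbp fell by 0.73 on the log2 scale (SE 0.114, adjusted p = 0.00172). Ciart (GRCm38 chr3:95878503-95882251), a repressor within the clock whose E-boxes are printed above, was 4.65, 7.06 and 8.59 in VEH-HC and 3.22, 3.32 and 4.87 in Y397F-T10. Y397F-T10 mice 2 to 6 lay between 3.22 and 3.42 FPKM, mouse 1 at 4.87 reached into the VEH-HC range, and the log2 fold change was -0.75 (SE 0.133, adjusted p = 0.00869). Nr1d1, which encodes the repressor REV-ERBα, was 51.9, 55.2 and 60.5 in VEH-HC and 37.5, 43.8 and 46.5 in Y397F-T10, without overlap (-0.36, adjusted p = 0.0204). Per2, a repressor of CLOCK and BMAL1 that is also a target of CREB, went up instead, from 4.39, 4.65 and 5.32 to 5.29, 6.21 and 7.68 (0.35, adjusted p = 0.03), with Y397F-T10 mouse 4 at 5.29 just under VEH-HC mouse 2 at 5.32. Clock itself was 5.5, 7.05 and 7.13 in VEH-HC and 7.44, 8.12 and 8.66 in Y397F-T10 (0.23, adjusted p = 0.0313).

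Of 5 clock output genes, 2 fell (40%, beside 0.660% of all rows), 0 rose and 3 were not called (median -0.31). Of 19 core clock genes and regulators, 2 rose (10.5%, beside 0.470% of all rows), 1 fell (5.26%) and 16 were not called (median -0.03). Among the uncalled members, Per1 had a log2 fold change of 0.00, Per3 of 0.02, Tef of -0.01, Arntl, which encodes BMAL1, of 0.12 and Hlf of -0.31 (adjusted p = 0.31). Leaving out 1 mouse kept Dbp and Ciart called in 12 of 12 fits, with adjusted p values up to 0.00926 and 0.0488, Nr1d1 in 9, Per2 in 7 and Clock in 5. With the length and GC trend removed, Nr1d1 was at -0.26 (adjusted p = 0.166) and Clock at 0.14 (adjusted p = 0.0576).

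Cirbp and Rbm3 fell, and 2 heat shock genes, Hsph1 and Chordc1, rose. Cirbp (GRCm38 chr10:80165985-80172786), the cold-inducible RNA-binding protein, was 48.1, 52.1 and 61.8 in VEH-HC and 33.6, 38.9 and 41.2 in Y397F-T10. All 6 Y397F-T10 mice lay below all 6 VEH-HC mice (-0.48, SE 0.0756, adjusted p = 0.00172). Rbm3, its close relative, was 77.2, 84.5 and 106 in VEH-HC and 53.7, 62.5 and 74.1 in Y397F-T10, again without overlap (-0.46, adjusted p = 0.0313). Hsph1, a large chaperone of the HSP110 family, was 69.9, 74 and 79.3 in VEH-HC and 82.8, 87 and 93.1 in Y397F-T10 (0.23, adjusted p = 0.0264). Chordc1, a co-chaperone of HSP90, was 15.8, 17.3 and 19.1 in VEH-HC and 20.4, 21.5 and 22.7 in Y397F-T10 (0.29, adjusted p = 0.016). Neither gene overlapped between conditions. With the choroid plexus and thalamus covariates Chordc1 was at 0.19. Of 31 heat shock proteins and co-chaperones, 2 rose (6.45%), 0 fell and 29 were not called, 22 lay above 0, and the median was 0.07. Hspa1b, an inducible HSP70, had a log2 fold change of 0.30 (adjusted p = 0.0732). Of 18 glucocorticoid-responsive genes, Klf9, a Krüppel-like factor, rose by 0.26 (adjusted p = 0.0379), 17 were not called, and the median was 0.15. Sgk1, a kinase of that list, was 29.9, 34.7 and 37.2 in VEH-HC and 30.3, 44.2 and 76.5 in Y397F-T10, with Y397F-T10 mouse 2 highest at 76.5 (0.39, adjusted p = 0.241).

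**Figure D4:**
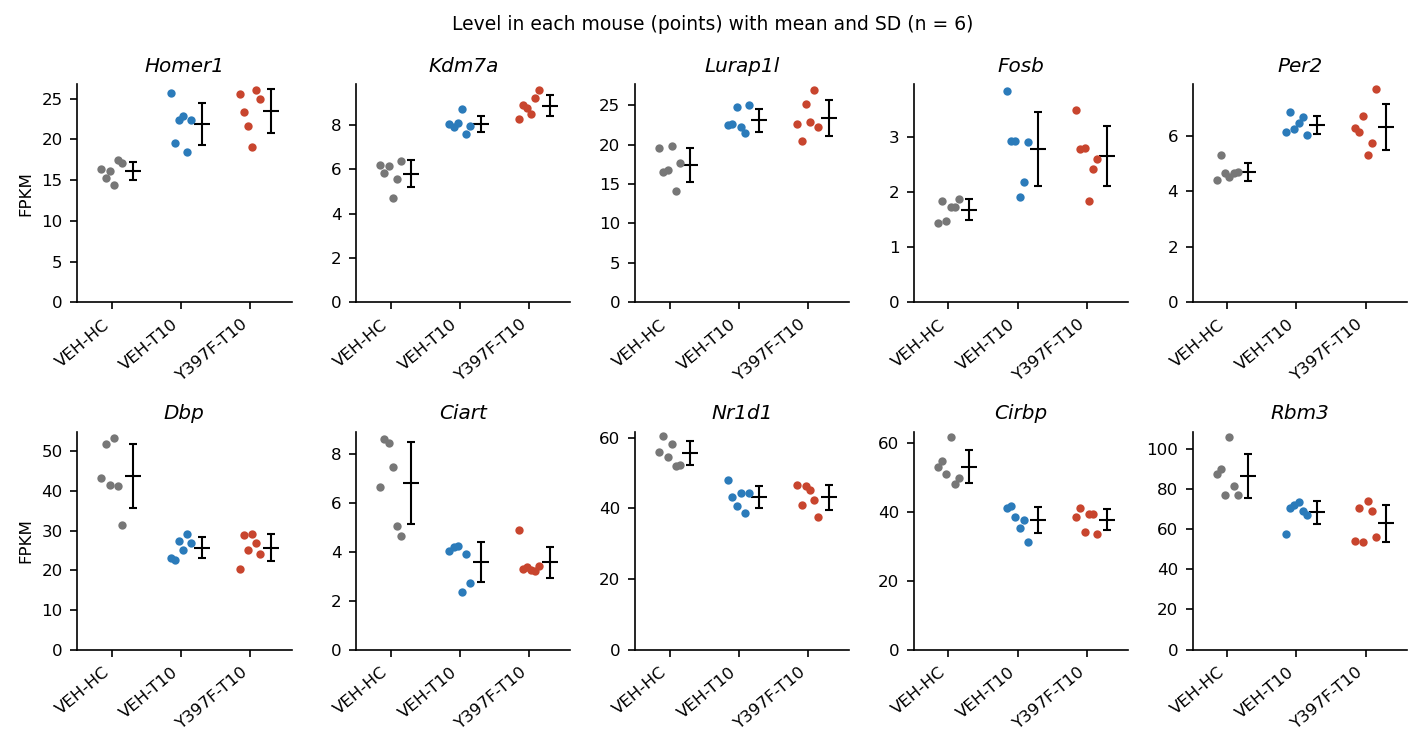
FPKM (vertical, from 0) of 10 genes in each of 6 mice (points) of VEH-HC (gray), VEH-T10 (blue) and Y397F-T10 (red), with mean and SD in black. Homer1, Kdm7a and Lurap1l are higher and Dbp, Nr1d1, Cirbp and Rbm3 lower in all 6 Y397F-T10 mice than in all 6 VEH-HC mice, while Fosb, Per2 and Ciart overlap by 1 Y397F-T10 mouse, and VEH-T10 mice overlap the Y397F-T10 mice in each gene.

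Grin2a, Kcnq3, Epha6, Gabrb1, Ryr2, Tanc1 and Cnksr2 rose. Grin2a, the GluN2A subunit of NMDA receptors, had the largest log2 fold change of the raised rows, from 3.45, 8.7 and 11 to 10.8, 13.3 and 18 (0.76, SE 0.179, adjusted p = 0.0364). VEH-HC mouse 4 had the lowest value at 3.45, Y397F-T10 mouse 2 at 10.8 lay under VEH-HC mouse 1 at 11, the smallest log2 fold change with 1 mouse left out was 0.56, and the call was made in 5 of those 12 fits. Kcnq3, a subunit of the M-current potassium channel, was 5.72, 10.7 and 12.2 in VEH-HC and 12, 14.7 and 16.7 in Y397F-T10 (0.52, adjusted p = 0.036), with VEH-HC mouse 4 again lowest at 5.72. Epha6, an ephrin receptor, was 7.39, 10.8 and 12.7 in VEH-HC and 12.9, 15.9 and 21.4 in Y397F-T10, without overlap (0.60, adjusted p = 0.0264). Gabrb1, a β subunit of GABA-A receptors, was 7.84, 10.8 and 11.4 in VEH-HC and 11.7, 14 and 15.4 in Y397F-T10 (0.40, adjusted p = 0.0318). Ryr2, the calcium release channel of the endoplasmic reticulum, was 9.98, 14 and 14.3 in VEH-HC and 15.5, 17.1 and 19.2 in Y397F-T10 (0.36, adjusted p = 0.0373). Tanc1, a postsynaptic scaffold, was 14.9, 17.2 and 19.2 in VEH-HC and 19.2, 23.2 and 26.1 in Y397F-T10 (0.38, adjusted p = 0.0264), and Cnksr2, another, rose by 0.27 (adjusted p = 0.0482). With the choroid plexus and thalamus means as covariates, Grin2a was at 0.43, Tanc1 at 0.24, Ryr2 at 0.23 and Cnksr2 at 0.10. With the length and GC trend removed, Gabrb1 was at 0.26 (adjusted p = 0.0761), Ryr2 at 0.23 (adjusted p = 0.0286) and Cnksr2 at 0.25 (adjusted p = 0.0694).

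Tanc1 is not on the list of postsynaptic scaffolds. Of the 18 scaffolds on that list 2, Homer1 and Cnksr2, rose (11.1%), 16 were not called, 15 lay above 0 and the median was 0.14. In the 2 Y397F-T10 libraries with choroid plexus transcripts that median was 0.02, and in the other 4 it was 0.20. Of 17 ionotropic glutamate receptor subunits only Grin2a was called, with a list median of -0.04, and Grin2b, the GluN2B subunit, was at 0.02 (adjusted p = 0.979). The same held for Gabrb1 among 12 GABA-A subunits and Epha6 among 17 Eph receptors and ephrins. Of 30 voltage-gated potassium channel genes, Kcnq3 rose and Kcns1, a modulatory subunit, fell from 5.63, 6.66 and 7.17 to 3.45, 4.69 and 5.63 (-0.44, adjusted p = 0.0313). Grm4, a presynaptic metabotropic glutamate receptor, fell from 3.31, 3.61 and 3.93 to 1.75, 2.19 and 2.55 without overlap (-0.55, adjusted p = 0.0313). Slc8a3, a sodium-calcium exchanger, fell from 3.69, 4.15 and 4.77 to 2.52, 2.92 and 3.29 (-0.40, adjusted p = 0.0308). With the marker covariates Grm4 was at -0.30 and Slc8a3 at -0.25, and with the length and GC trend removed Kcns1 (adjusted p = 0.105) and Grm4 (adjusted p = 0.0521) were not called. Of 23 neuronal calcium sensors and buffers 0 were called, with a median of -0.03. Hpcal1, a calcium sensor, had -0.48 (adjusted p = 0.0529).

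Of chromatin regulators, Kdm7a (GRCm38 chr6:39136623-39206789), a histone lysine demethylase, had the smallest adjusted p. It was 4.72, 6 and 6.38 in VEH-HC and 8.27, 8.83 and 9.58 in Y397F-T10, with no overlap, a log2 fold change of 0.54 (SE 0.0805) and an adjusted p of 0.00147. It was the 1 gene called of 40 histone lysine demethylases and methylases, of which 28 lay above 0. Sirt4, a mitochondrial sirtuin, was the 1 gene called of 26 deacetylases and corepressors (4.68, 5.26 and 6.17 against 5.39, 7.14 and 8.26, log2 fold change 0.33, adjusted p = 0.0466). Among 28 BAF subunits 0 were called, with a median of 0.02. The farthest from 0 were Dpf3, a neuronal BAF subunit, at 0.33 (adjusted p = 0.167) and Bcl7c at -0.22 (adjusted p = 0.248). Of 19 genes of CBP, p300, CREB and their partners, 1 rose and 1 fell. Crem, which encodes CREB-like activators and the repressor ICER, was 3.72, 4.88 and 5.33 in VEH-HC and 5.61, 6.34 and 6.52 in Y397F-T10, without overlap (0.35, adjusted p = 0.0313). Cited4, a small coactivator that binds CBP and p300, was 1.38, 2.03 and 2.8 in VEH-HC and 0.562, 1.16 and 1.35 in Y397F-T10 (-0.60, adjusted p = 0.0434). With the marker covariates Sirt4 was at 0.20, and with the length and GC trend removed Cited4 was not called (adjusted p = 0.132). Creb1 had a log2 fold change of 0.20 (adjusted p = 0.0619) and Ep300 of 0.08 (adjusted p = 0.571).

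The largest fall among the called rows was that of Slc17a6 (GRCm38 chr7:51622006-51671119), which encodes the vesicular glutamate transporter VGLUT2 of thalamic and habenular neurons. It was 3.6, 4.48 and 5.06 in VEH-HC and 1, 1.47 and 1.97 in Y397F-T10, and the conditions did not overlap (-1.12, SE 0.246, adjusted p = 0.0313). It was called in 5 of the 12 fits with 1 mouse left out. Of the 12 thalamus and habenula markers tested, 1 was called and 9 lay below 0, with a median of -0.24, and their sum was 99.5 to 141 FPKM in VEH-HC and 85.1 to 107 in Y397F-T10. Calb2, the calcium buffer calretinin, was 18.7, 34.6 and 42 in VEH-HC and 8.33, 11.5 and 33.4 in Y397F-T10, with Y397F-T10 mouse 1 at 33.4 (-1.21, adjusted p = 0.091). Zic1 was 3.11, 11 and 12.8 in VEH-HC and 1.53, 1.88 and 11.3 in Y397F-T10, where the 2 highest mice were 2 and 4, those with choroid plexus transcripts (-1.13, adjusted p = 0.149). Of 13 deep cortical layer markers 12 lay below 0 and 0 were called (median -0.18), and Cplx3, a complexin of subplate neurons, was 1.5, 2.05 and 3.14 in VEH-HC and 0.709, 0.842 and 1.33 in Y397F-T10 without overlap (-0.69, adjusted p = 0.0994). Of 22 GABAergic interneuron markers 18 lay below 0 and 0 were called (median -0.19). In the 2 Y397F-T10 libraries with choroid plexus transcripts alone, Slc17a6 was lower than in VEH-HC by 1.04 on the log2 scale, and in the other 4 by 1.15. With the choroid plexus and thalamus means as covariates, the latter of which includes Slc17a6 itself, it was at -0.68 (adjusted p = 0.834).

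Gng4, Klhdc8a, Pbx3, Tfap4, Hmgb3 and Slc16a11 also fell. Gng4, a G protein γ subunit, was 8.14, 9.04 and 12.1 in VEH-HC and 5.1, 6.25 and 8.13 in Y397F-T10 (-0.53, adjusted p = 0.0466). Klhdc8a was 1.94, 2.49 and 2.66 in VEH-HC and 1.22, 1.37 and 1.67 in Y397F-T10 (-0.50, adjusted p = 0.0364). Pbx3, a homeobox factor, was 2.16, 2.36 and 3.14 in VEH-HC and 1.28, 1.54 and 1.87 in Y397F-T10 (-0.45, adjusted p = 0.035). These 3 did not overlap between conditions. Tfap4, a basic helix-loop-helix factor, was 2.06, 2.2 and 2.56 in VEH-HC and 1.26, 1.44 and 1.85 in Y397F-T10 (-0.38, adjusted p = 0.0313), and Hmgb3, a high mobility group chromatin protein, was 10, 11.6 and 15.3 in VEH-HC and 7.2, 8.51 and 9.59 in Y397F-T10 (-0.45, adjusted p = 0.0313). Slc16a11, a monocarboxylate transporter, was 6.19, 6.45 and 7.37 in VEH-HC and 2.96, 4.71 and 5.38 in Y397F-T10 (-0.47, adjusted p = 0.0434). With the choroid plexus and thalamus means as covariates, the log2 fold change of Hmgb3 was -0.13, of Slc16a11 -0.14, of Gng4 -0.17 and of Klhdc8a -0.30, while Pbx3 was at -0.36 and Tfap4 at -0.37. None of these 6 was called with the length and GC trend removed, where the lowest adjusted p was that of Hmgb3 (0.0668).

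Among the other raised genes were Lurap1l, Rab30, Vps13c, Mib1 and Nrip1. Lurap1l (GRCm38 chr4:80910646-80955628) was 14.1, 17.3 and 19.9 in VEH-HC and 20.5, 22.8 and 27 in Y397F-T10 (0.41, SE 0.0691, adjusted p = 0.00552). Rab30, a small GTPase of the Golgi, was 2.51, 3.7 and 4.06 in VEH-HC and 4.49, 5.08 and 5.69 in Y397F-T10 (0.42, adjusted p = 0.016). In both genes every Y397F-T10 mouse lay above every VEH-HC mouse. Vps13c, a lipid transfer protein, was 2.85, 5.44 and 5.96 in VEH-HC and 6.08, 7.35 and 8.76 in Y397F-T10 (0.49, adjusted p = 0.0401). Mib1, a ubiquitin ligase of Notch ligands, was 5.68, 12 and 13 in VEH-HC and 14.1, 15.7 and 16.5 in Y397F-T10 (0.48, adjusted p = 0.0419). Nrip1, a nuclear receptor corepressor, was 2.88, 4.81 and 5.23 in VEH-HC and 5.52, 6.11 and 7.35 in Y397F-T10 (0.41, adjusted p = 0.0318). VEH-HC mouse 4 was the lowest mouse for Rab30, Vps13c, Mib1 and Nrip1. Slc7a14, a lysosomal amino acid transporter, was 19.3, 21.5 and 23.6 in VEH-HC and 25.2, 29.1 and 31.4 in Y397F-T10 (0.38, adjusted p = 0.03), and the pseudogene Slc2a4rg-ps was 0.894, 1.21 and 1.41 in VEH-HC and 1.61, 2 and 2.19 in Y397F-T10 (0.43, adjusted p = 0.0264). With the marker covariates Lurap1l and Slc7a14 were each at 0.25. As a pseudogene Slc2a4rg-ps may share reads with related sequence, so its level is uncertain.

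Microglial, astrocytic, inflammatory and interferon genes were not called. Of 28 interferon-stimulated and DNA-sensing genes 0 were called and 22 lay above 0, with a median of 0.22. Their summed FPKM was 296, 725 and 1098 in VEH-HC and 227, 791 and 1560 in Y397F-T10. The median was 0.76 in the 2 Y397F-T10 libraries with choroid plexus transcripts and -0.01 in the other 4. Of 18 microglia markers and 20 astrocyte markers 0 were called, with medians of -0.00 and -0.01, and of 19 inflammatory genes 0 were called, with a median of -0.04. Of 13 dentate granule cell markers 0 were called, 9 lay above 0, and Prox1 was 7.45, 10.1 and 11.7 in VEH-HC and 7.7, 14 and 16.1 in Y397F-T10, with mouse 1 at 7.7 (0.38, adjusted p = 0.299).

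Direction went with transcript length and base composition. Raised rows had a median transcript length of 6035 bases and a median GC content of 46.9%, lowered rows 2780 bases and 54.9%, and all tested rows 3171 bases and 50.3%. Across the 13095 rows with both values, the rank correlation of the log2 fold change with length was 0.34 and with GC content -0.27, over genes that share the same 12 libraries. Short, abundant transcripts lay slightly below 0. Of 79 rows of cytosolic ribosomal protein genes 75 had log2 fold changes below 0 (median -0.10) and of 82 nuclear oxidative phosphorylation subunits 77 (median -0.11), with 0 calls in either list. After each library was freed of its trend with length and GC content, these medians were -0.00 and -0.02, and 72 rows were raised and 13 lowered, with 43 of the 62 and 10 of the 87 remaining called. Of the 45 called genes named here, 28 stayed called in that fit and 17 did not.

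VEH-T10 mice had the same training without plasmid. They are compared with the same 6 VEH-HC mice, so the 2 comparisons share their controls and are set side by side only. VEH-T10 against VEH-HC raised 42 rows (0.319%) and lowered 66 (0.501%). For Homer1 the VEH-T10 mice had 18.5, 22.4 and 25.7 FPKM (lowest, median and highest) and a log2 fold change of 0.42 where Y397F-T10 had 0.51. Dbp was 22.7, 26 and 29.2 FPKM in VEH-T10, with a log2 fold change of -0.73 beside -0.73. Cirbp was 31.4, 38.1 and 41.8, with -0.49 beside -0.48. Nr1d1 was at -0.36 in VEH-T10, Ciart at -0.77, Per2 at 0.38, Kdm7a at 0.41 and Slc17a6 at -1.08. Grin2a was at 0.33 in VEH-T10 beside 0.76, Mib1 at 0.21 beside 0.48 and Gabrb1 at 0.18 beside 0.40.

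**Figure D5:**
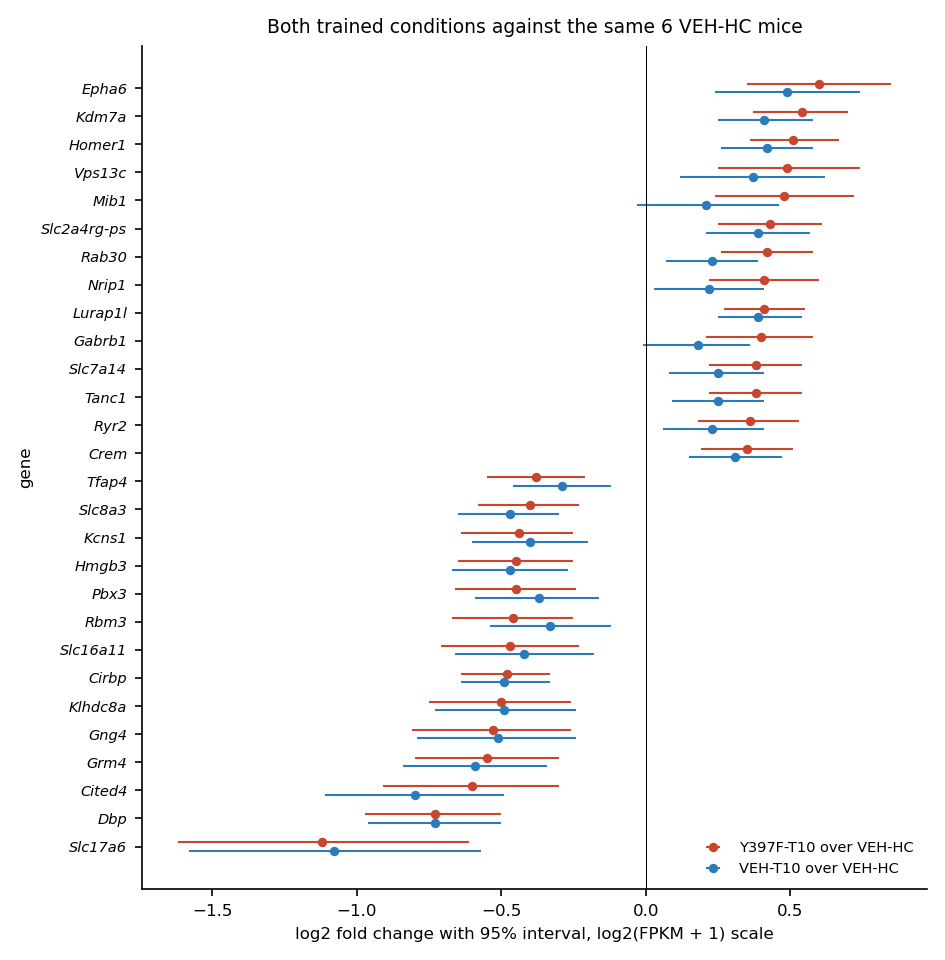
Log2 fold change with its 95% interval (horizontal) for the 14 raised and 14 lowered genes with the largest changes and no overlap between mice, in Y397F-T10 (red) and VEH-T10 (blue), each against the same 6 VEH-HC mice. Slc17a6 has the lowest point in both conditions (-1.12 and -1.08) and Epha6 the highest (0.60 and 0.49).

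Whether plasmid mice differed from vehicle mice after the same training was tested directly. In Y397F-T10 against VEH-T10 limma called 0 of 13184 rows (0%), an unadjusted p under 0.05 was found for 256 higher and 242 lower rows (3.78% together), and the smallest adjusted p was 0.996. With no difference in any row, about 659 rows would pass that unadjusted threshold, more than the 498 found. The 95% interval reached 0.16 to either side on the log2 scale (median over all rows). For Homer1 the difference was 0.09 (95% interval -0.06 to 0.25), for Kdm7a 0.13 (-0.04 to 0.29), for Dbp -0.00 (-0.24 to 0.23), for Cirbp 0.00 (-0.15 to 0.16) and for Slc17a6 -0.04 (-0.55 to 0.46). Other named genes had intervals that did not reach 0, all without passing adjustment, and some such intervals come about by chance. Crebbp was higher in all 6 Y397F-T10 mice than in all 6 VEH-T10 mice (0.21, 0.05 to 0.36), Grin2a differed by 0.43 (0.06 to 0.80), Mib1 by 0.27 (0.02 to 0.51), Gabrb1 by 0.22 (0.03 to 0.40), Rab30 by 0.19 (0.03 to 0.35) and Klf9 by 0.15 (0.02 to 0.28), and Rps19, a ribosomal protein gene, by -0.33 (-0.54 to -0.12). The intervals of genes such as Homer1 and Dbp leave room for differences of the size of many of the changes described here.

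Genes with the smallest p in this direct contrast, among rows whose mice did not overlap, were, for 7 of the 8 named, not called against the home cage. Non-overlapping rows numbered 23 higher (0.174%) and 11 lower (0.0834%). With 6 mice in each condition and no difference, 0.00216 of rows would not overlap, both directions together, a fraction and not a percentage. Both observed percentages together lie near that fraction, so the lack of overlap alone does not set these genes apart. Rlim, a ubiquitin ligase, was 7.57, 7.79 and 8.1 FPKM in Y397F-T10, 5.91, 6.58 and 7.11 in VEH-T10 and 7.02, 7.95 and 8.03 in VEH-HC, so the VEH-T10 mice were the low ones (difference 0.22, 95% interval 0.12 to 0.32). Yod1, a deubiquitinase, was 2.45, 2.75 and 3.52 in Y397F-T10, 2, 2.13 and 2.4 in VEH-T10 and 1.79, 2.05 and 2.55 in VEH-HC (0.28, 0.11 to 0.45). Klhl15, a ubiquitin ligase adaptor, had a difference of 0.31 (0.12 to 0.50) and Zkscan1, a zinc finger factor, of 0.16 (0.06 to 0.25). On the lower side, Cox19, a copper-binding mitochondrial assembly factor, was 23, 26.2 and 27.6 in Y397F-T10, 29, 30.9 and 37.2 in VEH-T10 and 24.7, 28.6 and 32.6 in VEH-HC (-0.27, -0.42 to -0.13). Mrpl30, a mitochondrial ribosomal protein, was 57.8, 60.6 and 62.8 in Y397F-T10, 64.7, 69.1 and 73.2 in VEH-T10 and 64.6, 68.4 and 72.9 in VEH-HC (-0.19, -0.31 to -0.07). Fam184b had a difference of -0.22 (-0.36 to -0.09). Mogs, the glucosidase that starts N-glycan trimming, had -0.16 (-0.26 to -0.05) and was also called against VEH-HC (-0.22, adjusted p = 0.0354), a call lost with the length and GC trend removed (adjusted p = 0.33). None of the 8 passed adjustment in the direct contrast.

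The genes that the study names from its sequencing were chosen on the same samples, so their list is not independent evidence of direction. Of its 28 rows 4 rose (14.3%, beside 0.470% of all rows), 0 fell and 24 were not called, 23 lay above 0, and the median log2 fold change was 0.26 in Y397F-T10 beside 0.35 in VEH-T10. The 4 were Homer1, Per2, Sirt4 and Camk1d, a calcium-dependent kinase (30.2, 31 and 35 against 34.6, 37.2 and 40.9, log2 fold change 0.22, adjusted p = 0.0429). With the marker covariates Camk1d was at 0.12, and it was not called with the length and GC trend removed (adjusted p = 0.144). Cabp7, a calcium-binding protein, was 83.5, 94 and 99.5 in VEH-HC, 91.3, 108 and 124 in Y397F-T10 and 110, 119 and 141 in VEH-T10 (0.22, adjusted p = 0.182). Tesc, an EF-hand protein, had 0.29 (adjusted p = 0.0838), Homer3 0.25 (adjusted p = 0.185), Hpca, the calcium sensor hippocalcin, 0.23 (adjusted p = 0.302) and Smoc2, a matrix protein, 0.14 (adjusted p = 0.414).

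Promoter motifs were read as a description in windows of 300 bases, from 250 before to 50 after each start, on both strands. Windows were found for 45 of the 62 raised symbols, 58 of the 86 lowered symbols and 9975 of all 13115 tested symbols. The E-box was in 9.23% of raised, 12.1% of lowered and 9.76% of all windows. The CRE core, which the full CRE contains, was in 26.2%, 30.3% and 30.2%, and the full CRE in 0%, 3.03% and 2.96%. The D-box, TTATGTAA or TTACGTAA, bound by DBP and its relatives, was in 0%, 0% and 0.722%, and the core of the serum response element in 3.08%, 1.52% and 1.31%, which is 2 raised windows and 1 lowered window.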

How the data were processed

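RNA from the dorsal hippocampus of 30 mice, 6 in each of 5 conditions, was sequenced, and the authors deposited 1 table of FPKM values made with TopHat2 2.1.1 and Cufflinks 2.2.1 on mm10. FPKM divide by total fragments and transcript length, so a change in abundant transcripts shifts all others. Relative depth was read from the steps of low FPKM values and was 0.812 to 1.25. Values of log2(FPKM + 1) were fitted for 13184 of 24883 rows (mean FPKM 1 or more) using limma 3.58.1 (R 4.3.3) with a mean-variance trend, all 30 libraries and 1 coefficient per condition, with Benjamini-Hochberg adjustment over all rows and a threshold of 0.05. Fold changes understate those of low genes. The study's methods describe an analysis of variance form over all conditions. Single values were compared by exact permutation tests over mice. Summaries used Python 3.11.15 with pandas 2.3.3, numpy 2.4.6 and scipy 1.17.1, and plots matplotlib 3.10.9. GENCODE annotation of GRCm38 matched 99.3% of tested rows, and 280 symbols stood on several rows, which were tested separately.

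Named were Ss18l1 and Crebbp, the 14 raised and 14 lowered genes with the largest changes and no overlap between mice, the called members of each gene list or otherwise its 2 members farthest from 0, genes the study names, and in each direction the 4 genes with the smallest p in the direct contrast among those without overlap. Other genes named in the text were picked from the lists after their values were seen. The comparison, members and lists were chosen with earlier results of these data known. Scripts were tested on simulated data. Alternatives were another pseudocount, no filter, centering, the 12 libraries alone, a replicate block, summed symbols, marker means as covariates, removal of length and GC trends, robust moderation and leaving out each mouse. Libraries were assigned by the labels to 6 separate mice per condition. The 2 sequencing platforms that the study used are not assigned to libraries in the sources used here, so no batch could be fitted.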

Additional observations from a re-analysis of the deposited data

Results flagged for a closer look

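In 252 groups of 6 mice, 19 had a mouse that stood apart from the other 5 by a gap past Dixon's 95% critical value, where chance gives about 1 in 20. VEH-HC mouse 4 was the lowest for Crebbp (3.89 FPKM, next 5.76), Mib1 (5.68, next 11.3), Ryr2 (9.98, next 13.1), Clock (5.5, next 6.92), Grin2b (4.76, next 11.3) and Rlim (7.02, next 7.86). This mouse was also the one low for long transcripts. Of these, Mib1, Ryr2 and Clock were raised against VEH-HC.

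Y397F-T10 mouse 1 was the highest of its condition for Ciart (4.87 FPKM, next 3.42), Gabra3 (23, next 11.8), Calb2 (33.4, next 15.3) and Efnb2 (10.3, next 5.72), and the lowest for Bcl7c (13.5, next 16.3), Klf9 (45.4, next 53.3), Prox1 (7.7, next 13.2) and Opalin (21.6, next 33). It was the mouse low for dentate granule cell markers.

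Single mice stood apart for 5 more genes. VEH-HC mouse 2 was highest for Per2 (5.32 FPKM, next 4.68) and VEH-HC mouse 6 lowest for Wnt9a (2.43, next 3.77). Y397F-T10 mouse 5 was highest for Hbb-bs, a hemoglobin chain (13.1, next 4.79), mouse 4 lowest for Cox19 (23, next 25.9), and mouse 2 was at 6.33 on 1 row of Hist2h2aa2, where the next was 8.76e-05.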

How the results depend on the processing

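Calls were few and their number depended on the processing. Y397F-T10 against VEH-HC gave 62 raised and 87 lowered rows, and 30 and 12 with libraries centered on their median, 6 and 37 with only the 12 libraries compared, 0 and 0 with choroid plexus and thalamus means as covariates, 72 and 13 with the length and GC trend removed and 725 and 1507 at an unadjusted p under 0.05. With only the Y397F-T10 mice that had choroid plexus transcripts the counts were 0 and 0, and with only the other 4 they were 134 and 268. Leaving out 1 mouse gave 3 to 119 raised and 4 to 283 lowered rows. The cause of these shifts was not tested. The thalamus mean used as a covariate itself went with condition. The 12-library fit, the fits with part of the Y397F-T10 mice and the leave-out fits all have fewer samples. Raised rows were 41.6% of calls, and 71.4% centered, 84.7% without the length and GC trend and 14% with the 12 libraries alone. Counts stayed within 1.5 times with a pseudocount of 0.1 (59 and 79), no filter (48 and 76), summed symbols (62 and 84) and robust moderation (60 and 85).

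Y397F-T10 against VEH-T10 gave 0 calls in each adjusted setting and 498 at an unadjusted p under 0.05, where about 659 would come about by chance. The Ss18l1 difference was -0.04 to 0.50 FPKM with 1 mouse left out. No called gene named in the text changed direction under these alternatives, which use the same mice on which the genes were called. No pairing by replicate number was seen between Y397F-T10 and VEH-HC. Same-numbered mice of these conditions had correlations of -0.456 to 0.144 between their deviations, and 0 of 6 correlated best with its own number. Between Y397F-T10 and VEH-T10 these correlations were -0.38 to 0.441, over 0.1 for numbers 1, 4 and 6 and not for the other 3, and 2 of 6 correlated best with their own number. Such correlations cannot exclude that mice of the same number were processed together. With a replicate block 66 rows were raised and 110 lowered, and 56 of the 62 and 78 of the 87 remained called.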

Other observations

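Some lists that stand in no comparison above had the following values in Y397F-T10 against VEH-HC, with 0 calls in each. All 12 ependymal markers lay below 0 (median log2 fold change -0.41), 13 of 16 meningeal fibroblast markers did (-0.25), and 18 of 22 Wnt ligands, receptors and antagonists did (-0.15). In the 2 Y397F-T10 mice with choroid plexus transcripts these medians were 0.49, 0.63 and 0.05, and in the other 4 mice -0.93, -0.51 and -0.20. Of 19 oligodendrocyte lineage markers 16 lay below 0 (-0.12), and Opalin, a myelin membrane protein, was lower in all 6 Y397F-T10 mice than in all 6 VEH-HC mice without being called. Medians were 0.13 for 12 markers of CA2 and CA3, 0.00 for 6 mossy cell markers, -0.03 for 22 endothelial and mural markers, 0.07 for 11 blood cell markers, -0.08 for 24 collagens and 0.15 for 26 clustered histone rows, many of which belong to near-identical genes and may share reads.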
